A study of Mus musculus and Rattus norvegicus with 30 samples.

Results

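Bbc3, Bcl2l11, Hrk, Bax, Bcl2, Bcl2l1, Gadd45a, Cdkn1a and Trp53 are genes of the mitochondrial cell death pathway and of the p53 stress response. They were found by gene symbol among the features counted in dorsal root ganglion (DRG) RNA after nerve injury. All 9 had an entry among the 54315 features of the mouse count table. The rat count table listed 39281 features, among which Hrk and Bbc3 had no entry by symbol. DRG are the swellings beside the spinal cord that hold the cell bodies of sensory neurons, together with satellite glia, Schwann cells and macrophages.

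Mouse libraries came from the L3 and L4 DRG of 1 animal each, 28 days after surgery. The inbred strains BALB/c and B10.D2 were purchased at 4 to 8 weeks of age and both sexes were used. In spared nerve injury (SNI) 2 branches of the sciatic nerve, the common peroneal and the sural, were severed while the tibial branch stayed whole, so the ganglia held cut and uncut neurons side by side. In sham animals the branches were exposed only. BALB/c gave 6 sham and 4 SNI libraries and B10.D2 gave 5 of each, named here by the sample number of their title. Rat libraries came from the L5 DRG of male Wistar rats, with 3 animals pooled in each, 21 days after the L5 spinal nerve was tied and cut (SNT, spinal nerve transection) or exposed only (sham), and there were 4 of each. The rat ages were not given in the sources used here. No group carried a transgene or a gene deletion. Levels are given as CPM, the counts of a gene per 1000000 counts, scaled by the TMM factor of each library.

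In the mitochondrial pathway of apoptosis, BH3-only proteins bind the anti-apoptotic proteins of the BCL2 family and so free the effectors, which open the outer mitochondrial membrane and let out cytochrome c. Apaf1 and the caspases act downstream of that step. p53, encoded by Trp53, is a transcription factor that is controlled mainly through the stability of its protein, and its known targets include Bbc3, Bax, Cdkn1a and Gadd45a. Hrk and Bcl2l11 are known instead as BH3-only genes that JNK and c-Jun switch on in neurons deprived of growth factor, while adult DRG neurons are known to survive a cut of their peripheral axon far better than newborn ones.

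The 4 genes that rose after SNI in BALB/c (Hrk, Gadd45a, Bcl2l11 and Cdkn1a) differ in the sequence just before a RefSeq transcription start. These stretches are shown 5′ to 3′ on the strand of the gene, from RefSeq on GRCm38.p6, because they let the genes with a p53-type motif be told from those without one. Each begins 250 bases before the RefSeq start, and the Hrk stretch stops where the annotated first exon of its coding transcript begins. Capitals mark the motifs found. The positions are chr5:118169514-118169747 (plus strand) for Hrk, chr6:67037408-67037657 (minus strand) for Gadd45a, chr2:128125788-128126037 (plus strand) for Bcl2l11 and chr17:29090729-29090978 (plus strand) for Cdkn1a.
Hrk: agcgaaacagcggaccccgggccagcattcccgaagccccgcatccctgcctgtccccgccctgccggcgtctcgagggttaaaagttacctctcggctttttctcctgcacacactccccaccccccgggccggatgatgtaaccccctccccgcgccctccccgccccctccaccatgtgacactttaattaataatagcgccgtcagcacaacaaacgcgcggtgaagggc
Gadd45a: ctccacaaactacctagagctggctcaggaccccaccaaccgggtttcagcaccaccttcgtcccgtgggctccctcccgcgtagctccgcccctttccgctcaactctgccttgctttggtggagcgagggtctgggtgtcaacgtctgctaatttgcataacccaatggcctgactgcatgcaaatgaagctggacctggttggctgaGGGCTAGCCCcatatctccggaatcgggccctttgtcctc
Bcl2l11: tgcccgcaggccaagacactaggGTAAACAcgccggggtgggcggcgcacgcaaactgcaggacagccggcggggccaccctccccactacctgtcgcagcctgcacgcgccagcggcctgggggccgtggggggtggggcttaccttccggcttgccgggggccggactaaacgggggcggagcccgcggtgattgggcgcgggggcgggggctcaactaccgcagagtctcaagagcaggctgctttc
Cdkn1a: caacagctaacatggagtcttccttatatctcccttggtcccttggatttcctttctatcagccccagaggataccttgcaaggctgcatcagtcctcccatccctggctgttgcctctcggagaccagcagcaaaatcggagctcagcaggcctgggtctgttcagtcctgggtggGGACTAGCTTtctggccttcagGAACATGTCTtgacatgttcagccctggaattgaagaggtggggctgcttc
Searched on both strands were the AP-1 letters TGANTCA, the CRE letters TGACGTCA, the FOXO letters GTAAACA and the p53 half-site, and no match overlapped another. Gadd45a held 1 p53 half-site, which began 40 bases before the RefSeq start, and Cdkn1a held 2, which began 73 and 51 bases before theirs. In GENCODE the Gadd45a gene begins farther upstream, at 67037457, so its half-site and the end of its printed stretch lie within the annotated gene. Bcl2l11 held 1 FOXO match, and Hrk held none of the 4 motifs. In GENCODE the Hrk gene also begins farther upstream, at 118164648, so its whole printed stretch lies within the annotated gene. The sequence before that upstream start of Hrk was not searched. Over 32851 RefSeq windows of 250 bases, 7.13% held the p53 half-site, 3.17% the FOXO letters, 6.75% the AP-1 letters and 1.55% the CRE letters. Bcl2l11 and Cdkn1a have a second RefSeq start each, and the windows before those held none of the 4 motifs. Among the other members, a p53 half-site was found before Bax and Trp53 and a FOXO match before 1 of the 3 Bbc3 starts. A match is a description of letters and does not show binding.

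The mouse libraries held 29.99 to 41.9 M counts (M, mega) and the rat libraries 11.95 to 17.9 M. All 10 sensory neuron markers were detected in mouse, with summed levels of 7180 to 8591 CPM. Some libraries stood apart from their groups. B10.D2 SNI 76 had 35.6 CPM of Atf3, the classic marker of axotomised neurons, against 85.8 to 105.5 CPM in the other B10.D2 SNI libraries and 8.54 to 23.8 CPM in B10.D2 sham. Rat sham 4 had 5.93 CPM of the injury gene Sprr1a, against 1.40 to 1.64 CPM in the other sham libraries and 6.26 to 11.99 CPM in SNT. Rat SNT 1 held 1368 CPM of summed Schwann cell markers, within the sham range of 1158 to 1598 CPM. The other SNT libraries held 1901 to 2817 CPM. Its summed sensory neuron markers, 7429 CPM, also lay within the sham range (6219 to 9110 CPM), against 4112 to 6694 CPM in the other SNT libraries. Without SNT 1 the rat members called were the same. Members' values that move with B10.D2 SNI 76 or rat sham 4 are given with and without that library.

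In BALB/c, Hrk, Gadd45a, Bcl2l11 and Cdkn1a rose after SNI, so that 4 of the 9 genes were called (edgeR quasi-likelihood test, Benjamini-Hochberg adjusted p under 0.05), against 9.69% of the 24685 features tested. In B10.D2, Hrk and Gadd45a rose, 2 of 9 against 4.58% of features. No member fell in either strain. The median log2 fold change of the 9 was 0.30 in BALB/c and 0.22 in B10.D2, beside 0.0033 and 0.0076 over all features tested. The SNI and sham libraries did not overlap for 4 members in BALB/c, where 8.61% of features did not overlap. In B10.D2 they did not overlap for Hrk and Trp53, where 5.18% of features did not.

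Hrk (chr5:118164648-118189478, plus strand, mm10, ENSMUSG00000046607), which encodes the BH3-only protein Harakiri, was the member with the largest change in mouse and the lowest CPM in sham mice. In BALB/c sham it ranged from 0.727 to 1.76 CPM with a median of 1.14 CPM (n = 6). The BALB/c SNI libraries 49, 64, 65 and 70 held 6.78, 7.65, 6.22 and 8.17 CPM. Every BALB/c SNI library thus lay far above every sham library, with 209 to 305 counts of Hrk against 26 to 73. The log2 fold change was 2.66 (SE 0.236, 95% interval 2.20 to 3.12), or 6.31-fold, with an edgeR adjusted p of 2.31e-07. It was rank 62 of 24685 features by log2 fold change.

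In B10.D2 sham libraries 58, 60, 67, 77 and 88, Hrk was at 1.58, 1.116, 1.20, 1.49 and 1.01 CPM. The B10.D2 SNI libraries 69, 76, 78, 89 and 90 held 5.33, 2.27, 5.77, 4.52 and 5.94 CPM. All 5 SNI libraries were above all shams, and library 76, the one with low Atf3, was the lowest of them. This gave a log2 fold change of 1.88 (SE 0.241, 95% interval 1.41 to 2.36), or 3.69-fold, with an edgeR adjusted p of 6.26e-05. Without library 76 the log2 fold change of Hrk was 2.06.

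**Figure D1:**
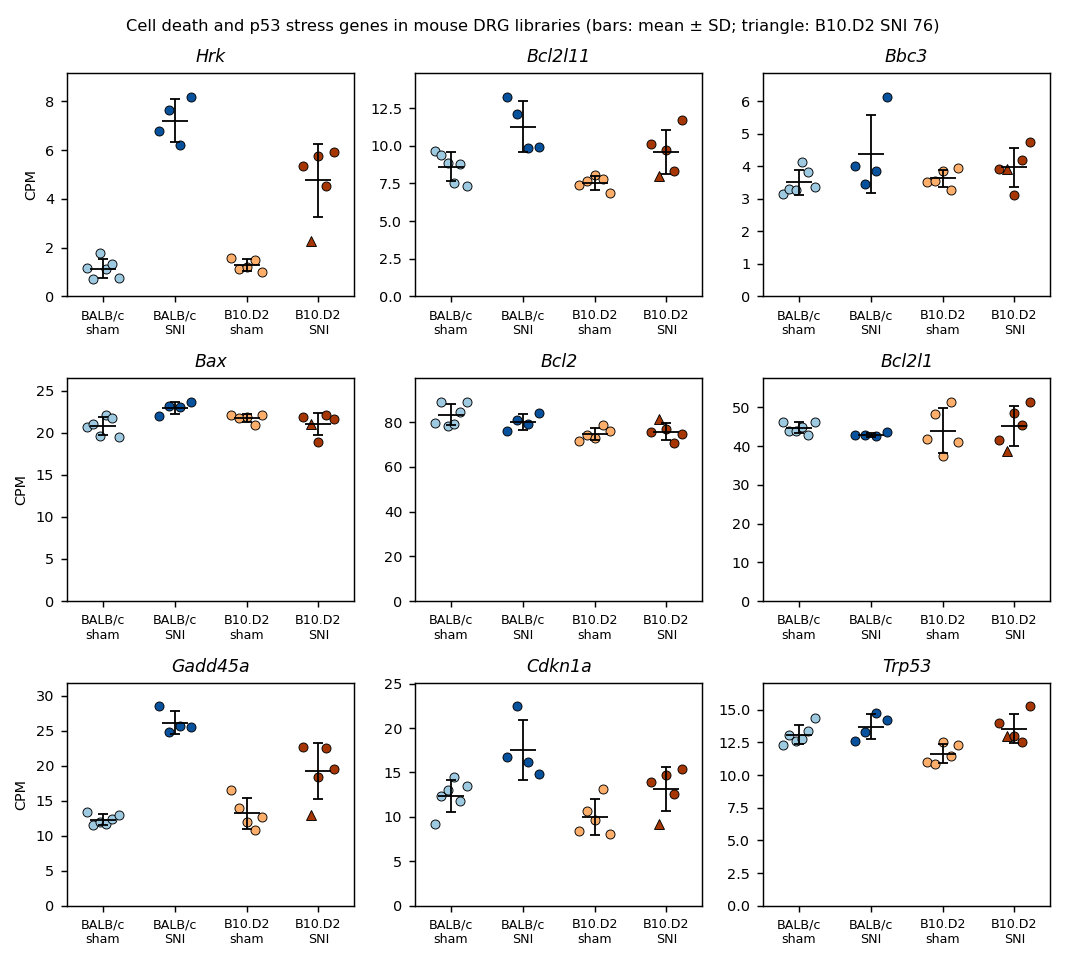
Level of each of the 9 genes in CPM (y axis) in every mouse library, by group (x axis). Points are libraries, bars show the mean ± SD of the group, and the triangle is B10.D2 SNI 76. Hrk rose from 1.14 ± 0.389 to 7.20 ± 0.870 CPM in BALB/c and from 1.28 ± 0.244 to 4.77 ± 1.498 CPM in B10.D2, whereas Bcl2 and Bcl2l1 stayed between 70.8 and 89.1 and between 37.4 and 51.4 CPM over all groups.

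Bcl2l11 (chr2:128126038-128162547, plus strand), the gene of the BH3-only protein BIM, rose by a smaller amount. In BALB/c sham it ranged from 7.36 to 9.68 CPM with a median of 8.84 CPM (n = 6). The BALB/c SNI libraries held 13.2, 12.1, 9.82 and 9.92 CPM. The groups did not overlap, but the lowest SNI library was only just above the highest sham. Its log2 fold change was 0.39 (SE 0.111), or 1.31-fold, with an edgeR adjusted p of 0.0291, and the call was lost when any of sham 56, sham 71, SNI 49 or SNI 64 was left out (adjusted p 0.0663 to 0.134). In B10.D2 the level was 7.54 ± 0.456 CPM (SD, n = 5) among shams and 9.58 ± 1.48 CPM (SD, n = 5) in SNI. There the groups overlapped only in that library 76, at 8.01 CPM, was below the highest sham, at 8.04 CPM. The log2 fold change of 0.35 (adjusted p 0.0813 in edgeR, SE 0.111) did not pass, and without library 76 it was 0.40 (adjusted p 0.0452). It also passed without SNI 89 (edgeR adjusted p 0.0459), while leaving out other libraries gave no call, with an adjusted p of up to 0.307.

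Bbc3, the gene of the BH3-only protein PUMA and a known p53 target, did not pass in either strain. In BALB/c it was at 3.51 ± 0.381 CPM (SD, n = 6) among shams and 4.37 ± 1.20 CPM (SD, n = 4) in SNI. The SNI mean was carried by library 70, at 6.13 CPM, while the other 3 held 3.46 to 4.02 CPM, within the range of sham libraries (3.16 to 4.13 CPM). Its log2 fold change was 0.30 (SE 0.136, edgeR adjusted p 0.180) in BALB/c and 0.15 (SE 0.135, edgeR adjusted p 0.645) in B10.D2.

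Bax, an effector that forms pores in the mitochondrial membrane, averaged 20.8 ± 1.05 CPM (SD, n = 6) in BALB/c sham and 23.0 ± 0.705 CPM (SD, n = 4) in SNI. The groups overlapped narrowly, and the log2 fold change of 0.14 (adjusted p 0.0931 in edgeR, SE 0.0519) did not pass. In B10.D2 Bax was at 21.8 ± 0.485 CPM (SD, n = 5) among shams and 21.1 ± 1.31 CPM (SD, n = 5) in SNI, a log2 fold change of -0.04 (adjusted p 0.752 in edgeR, SE 0.0515).

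Neither anti-apoptotic gene passed the test in either strain. For Bcl2 the 95% interval of the log2 fold change was -0.15 to 0.04 in BALB/c and -0.08 to 0.11 in B10.D2. For Bcl2l1, which encodes BCL-XL, it was -0.21 to 0.09 in BALB/c and -0.10 to 0.19 in B10.D2. These approximate intervals hold changes of at most 0.21 on the log2 scale in either direction, against 2.20 or more for Hrk in BALB/c.

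Gadd45a (chr6:67035096-67037457, minus strand, ENSMUSG00000036390) encodes a stress protein that binds cell cycle and repair factors and is a known target of p53. In BALB/c sham it ranged from 11.5 to 13.4 CPM with a median of 12.2 CPM (n = 6). The BALB/c SNI libraries held 28.5, 24.8, 25.8 and 25.6 CPM. Both groups were tight and lay far apart, and the log2 fold change was 1.09 (SE 0.110, 95% interval 0.87 to 1.30), or 2.12-fold, with an edgeR adjusted p of 1.15e-06. In B10.D2 sham libraries 58, 60, 67, 77 and 88 Gadd45a was at 16.5, 13.99, 11.9, 10.9 and 12.7 CPM. The B10.D2 SNI libraries 69, 76, 78, 89 and 90 held 22.7, 13.0, 18.5, 22.6 and 19.5 CPM. Library 76 lay within the sham range and the other 4 lay above it. The log2 fold change was 0.58 (SE 0.111, 95% interval 0.36 to 0.80), or 1.497-fold, with an edgeR adjusted p of 0.00302, and without library 76 it was 0.68 (adjusted p 7.27e-05).

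Gadd45a shares 337 exonic bases with E230016M11Rik, a noncoding gene on the opposite strand. The libraries were made to keep the strand, but the setting used in the counting was not given in the sources used here. E230016M11Rik held 13.1 ± 1.77 CPM in BALB/c sham and 11.96 ± 2.37 CPM in BALB/c SNI, and after SNI it differed by -0.15 on the log2 scale in BALB/c (edgeR adjusted p 0.426) and by -0.05 in B10.D2 (adjusted p 0.883).

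Cdkn1a (chr17:29090976-29100727, plus strand), which encodes the cell cycle inhibitor p21 and is the textbook p53 target, rose in BALB/c. Its sham libraries ranged from 9.24 to 14.5 CPM with a median of 12.7 CPM (n = 6), and the SNI libraries 49, 64, 65 and 70 held 16.7, 22.4, 16.2 and 14.8 CPM. The groups did not overlap, although SNI 70 was close to the highest sham and SNI 64 stood above the rest. On the log2 scale the change was 0.50 (SE 0.147), or 1.41-fold, with an edgeR adjusted p of 0.0358, and the call was lost without sham 50, sham 57, SNI 49 or SNI 64 (adjusted p 0.0665 to 0.179). In B10.D2 the level was 9.97 ± 2.05 CPM (SD, n = 5) among shams and 13.2 ± 2.47 CPM (SD, n = 5) in SNI. The groups overlapped, and the log2 fold change of 0.38 (adjusted p 0.171 in edgeR, SE 0.148) did not pass. Without library 76 it was 0.50 (adjusted p 0.0312), while leaving out any other library gave no call (edgeR adjusted p up to 0.467).

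Trp53 itself averaged 13.1 ± 0.723 CPM (SD, n = 6) in BALB/c sham and 13.7 ± 0.950 CPM (SD, n = 4) in BALB/c SNI, a log2 fold change of 0.07 (adjusted p 0.613 in edgeR, SE 0.0698). In B10.D2 it was at 11.6 ± 0.748 CPM (SD, n = 5) among shams and 13.6 ± 1.09 CPM (SD, n = 5) in SNI, and no SNI library was below a sham library. The log2 fold change of 0.22 (adjusted p 0.0821 in edgeR, SE 0.0692) did not pass. Mouse Trp53 has a processed pseudogene, Trp53-ps, and the authors used uniquely mapped read pairs, so pairs that match both copies could have been lost.

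**Figure D2:**
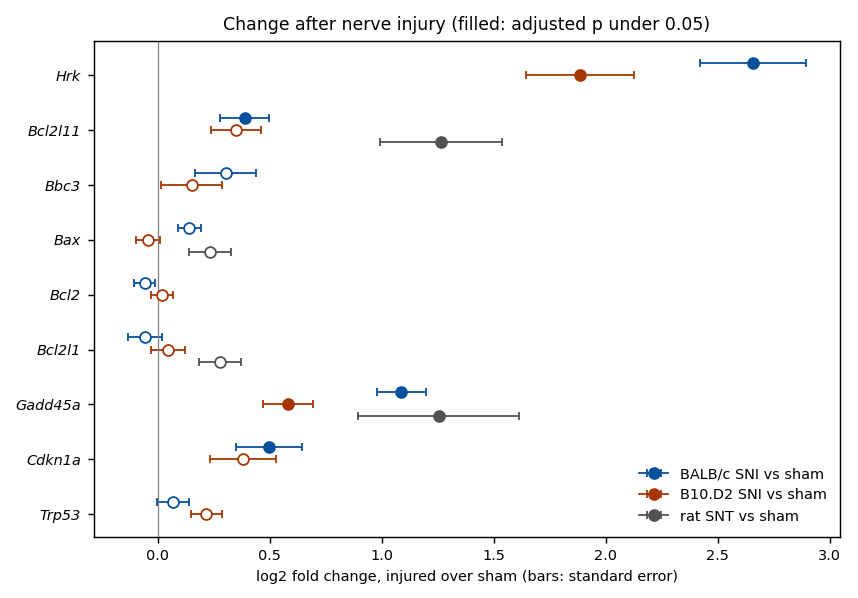
Log2 fold change of injured over sham (x axis) for each member (y axis) in BALB/c, B10.D2 and rat, with the SE as bars and filled points for genes called in edgeR. Hrk at 2.66 and 1.88 lies farthest to the right in mouse, the points of Bcl2 and Bcl2l1 are open in both strains, and the rat points for Bcl2l11 and Gadd45a are at 1.27 and 1.26.

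The strains were then compared. The injury change of Gadd45a was smaller in B10.D2 than in BALB/c by 0.51 on the log2 scale (95% interval of the interaction -0.81 to -0.20, unadjusted p from edgeR 0.00416), and that of Hrk was smaller by 0.77 (-1.44 to -0.11, unadjusted p 0.0339). For Bax the interaction was -0.19 (unadjusted p 0.0197). These were the 3 of 9 members with an unadjusted p under 0.05. None of the 9 interactions passed over all features (edgeR adjusted p 1.0 for these 3, and 0 of 9 in DESeq2), where 0.0243% of features did. Without library 76 the interaction was -0.41 for Gadd45a, -0.61 for Hrk and -0.19 for Bax, and again 0 of 9 passed.

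Within SNI animals, Gadd45a was lower in B10.D2 than in BALB/c, at 19.2 ± 3.98 against 26.2 ± 1.61 CPM, and was the 1 member called (log2 fold change -0.43, edgeR adjusted p 0.00901), where 20.8% of features were called. Every B10.D2 SNI library was below every BALB/c SNI library. Hrk was likewise separated, at most 5.94 CPM against at least 6.22 CPM, but its log2 fold change of -0.60 did not pass (edgeR adjusted p 0.0634). Without library 76 these were -0.33 (adjusted p 0.0150) for Gadd45a and -0.42 (adjusted p 0.114) for Hrk. Among sham animals, Bcl2 was the 1 member called, where 21.6% of features were called. It was at 74.7 ± 2.87 CPM in B10.D2 and 83.4 ± 4.85 CPM in BALB/c, a log2 fold change of -0.16 (adjusted p 0.0159 in edgeR, SE 0.0457). The lowest BALB/c library, at 78.5 CPM, was just under the highest B10.D2 library, at 78.7 CPM.

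Male and female mice differed past the threshold in 0 of the 9 genes in edgeR and in DESeq2, where 0.243% of features were called in edgeR. The 1 member with an unadjusted p under 0.05 was Gadd45a, at a log2 difference of 0.18 (male over female, SE 0.0785, unadjusted p 0.0367, edgeR adjusted p 0.380).

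To set different genes side by side, levels were divided by exonic length. That length joins the annotated exons of all transcripts of a gene and can exceed that of the RNA present, so the order is approximate. Per kilobase, Bax led in BALB/c sham with 13.2 ± 0.668 CPM per kilobase (SD, n = 6). Bcl2l1 at 9.74 ± 0.303 and Bcl2 at 9.11 ± 0.529 CPM per kilobase came next and overlapped between libraries. Gadd45a followed at 6.98 ± 0.423 CPM per kilobase. Cdkn1a at 3.49 ± 0.508 and Trp53 at 3.23 ± 0.179 CPM per kilobase also overlapped. The BH3-only genes were the lowest, with Bbc3 at 1.65 ± 0.179, Bcl2l11 at 1.07 ± 0.120 and Hrk at 0.201 ± 0.069 CPM per kilobase. In BALB/c SNI Gadd45a reached 14.8 ± 0.915 CPM per kilobase, beside Bax at 14.6 ± 0.447. Hrk reached 1.27 ± 0.153 CPM per kilobase there, close to Bcl2l11 at 1.40 ± 0.210, and was still the lowest member. In B10.D2 SNI Bax stayed first at 13.4 and Gadd45a was second at 10.9 CPM per kilobase. The ratio of Hrk to Bcl2l1, an anti-apoptotic protein that Harakiri binds, was 0.021 per kilobase in BALB/c sham and 0.135 ± 0.015 in SNI, and 0.024 and 0.084 in B10.D2. These are RNA levels and say nothing of protein.

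Hrk and Gadd45a were set beside the injury markers. The 8 axotomised neuron markers (Atf3, Sprr1a, Gal, Gap43, Sox11, Npy, Csf1 and Ecel1) all rose in both strains, and their summed level was 156 to 215 CPM in BALB/c sham, 578 to 729 CPM in BALB/c SNI, 176 to 212 CPM in B10.D2 sham and 268 to 482 CPM in B10.D2 SNI. Library 76 was the lowest B10.D2 SNI library in this sum, in Hrk and in Gadd45a. Among the BALB/c SNI libraries the orders differed, since library 70 had the lowest sum of markers (578 CPM) and the most Hrk (8.17 CPM), and library 64 the highest sum (729 CPM) and the least Gadd45a (24.8 CPM). In bulk DRG, fewer cells of a type and less RNA per cell cannot be told apart, and the part of the number of cut neurons in a ganglion was not tested.

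**Figure D3:**
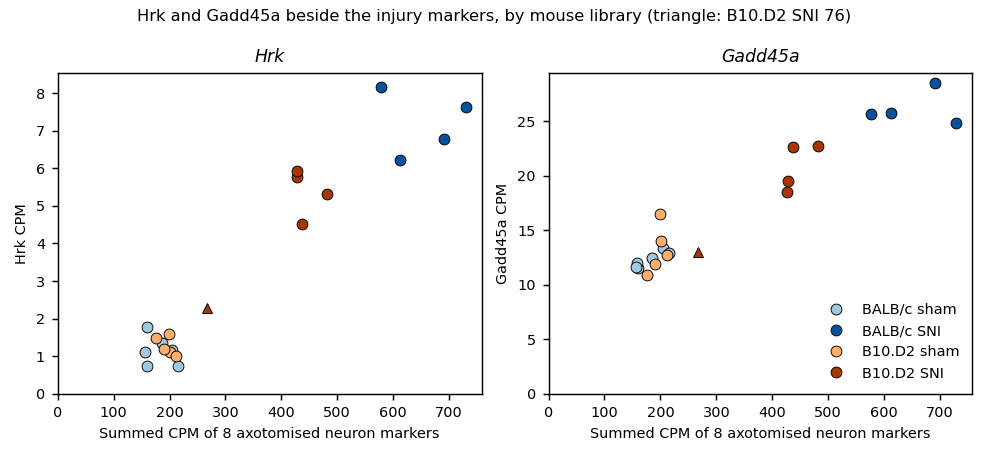
CPM of Hrk and of Gadd45a (y axes) against the summed CPM of 8 axotomised neuron markers (x axis) in the 20 mouse libraries, coloured by group, with B10.D2 SNI 76 as a triangle. Library 76, at 268 CPM of the markers, lies between the sham libraries (156 to 215 CPM) and the other SNI libraries (427 to 729 CPM) and holds 2.27 CPM of Hrk and 13.0 CPM of Gadd45a.

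Over the 20 mouse libraries, centred within strain, the features whose log2 level was most like Hrk among 18591 included Slfn9 and Adam8, with Pearson r of 0.975 and 0.974. The features most like Gadd45a were Tes, Tnfrsf12a and Sox11, with r of 0.976, 0.963 and 0.954. All 5 of these rose after SNI in both strains, as Hrk and Gadd45a did, so r holds the difference between SNI and sham libraries that they share. Hrk and Gadd45a correlated with each other at r of 0.922, while r with Hrk was 0.80 for Bcl2l11, 0.75 for Cdkn1a, 0.052 for Bcl2l1 and -0.32 for Bcl2.

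Macrophage markers were also higher in some of the injured groups. Of 9 such markers, 3 (Cd68, Csf1r and Cx3cr1) rose in BALB/c and 0 in B10.D2 (edgeR, adjusted p under 0.05). Their summed level was 65.5 to 161 CPM in BALB/c sham and 134 to 209 CPM in BALB/c SNI, and 139 to 156 and 152 to 265 CPM in B10.D2. Of 6 proliferating cell markers 1 (Ccnb1) rose in BALB/c, with sums of 45.1 to 97.8 CPM in sham and 66.9 to 165 CPM in SNI. In SNI animals 4 of them (Mki67, Top2a, Cdk1 and Rrm2) were lower in B10.D2 than in BALB/c. None of the 6 Schwann cell markers was called in mouse. The satellite glia marker Cdh19 was higher in both strains, and the other 4 markers of that list were not called. The part of these cells in the changes of Cdkn1a, Bcl2l11 and Gadd45a was not tested.

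Beyond the 9 members, 81 other genes of the same pathways were examined, of which 78 were tested in mouse. BALB/c gave 20 calls, of which 12 were higher after SNI, with a median log2 fold change of 0.058 over the list, where 9.69% of all features were called and their median was 0.0033. B10.D2 gave 9 calls, of which 6 were higher, with a median of 0.036, where 4.58% of all features were called and their median was 0.0076. Without library 76, B10.D2 gave 11 calls, with Bcl2l2, Jun and Pmaip1 gained and E2f1 lost (named after their values were seen). The 8 genes called in both strains, among them Bnip3, Apaf1, Cdkn2a, Atr, Btg2, Sesn2 and Eda2r, had the same direction in both, and were 40% of the BALB/c calls and 88.9% of the B10.D2 calls. The same overlap over all features was not computed, so these shares cannot be read as particular to the pathway genes. The difference of the injury change between the strains was called in edgeR for 0 of the 78.

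Of 16 genes of the apoptosome and caspases, 4 rose and 0 fell in BALB/c, and 2 rose and 0 fell in B10.D2, where 9.69% and 4.58% of all features were called. Apaf1, the scaffold of the apoptosome, went from 21.3 to 27.7 CPM in BALB/c (log2 fold change 0.37, edgeR adjusted p 0.00489), and Casp6 from 1.94 to 3.00 CPM (0.63, adjusted p 0.00219). Among 7 other BH3-only genes in BALB/c, Pmaip1, which encodes the p53 target NOXA, rose from 2.29 to 4.17 CPM (0.86, edgeR adjusted p 0.00282), and 2 fell, of which Bnip3 went from 123 to 102 CPM (-0.27, adjusted p 0.0029). Of the other anti-apoptotic genes 1 of 4 tested was called, lower, and of the other effectors 0 of 2.

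Of 27 other p53 targets, 4 rose and 1 fell in BALB/c and 3 rose and 0 fell in B10.D2, where 9.69% and 4.58% of all features were called. Sesn2, a stress-induced regulator of growth signalling, rose from 4.93 to 6.51 CPM in BALB/c (log2 fold change 0.40, edgeR adjusted p 0.00853) and from 4.54 to 5.79 CPM in B10.D2 (0.34, adjusted p 0.0444). In B10.D2 Eda2r went from 1.89 to 2.90 CPM (0.62, edgeR adjusted p 0.0146) and Btg2 from 10.7 to 15.5 CPM (0.53, adjusted p 0.0208). Among genes that act on p53, Cdkn2a rose in B10.D2 from 0.940 to 2.08 CPM (1.16, edgeR adjusted p 0.00041), E2f1 went from 12.2 to 10.2 CPM (-0.24, adjusted p 0.0456, not called without library 76), and the DNA damage kinase gene Atr fell in both strains by 0.35 on the log2 scale (adjusted p 0.000175 and 0.000258). Of 13 genes of the axon injury and stress kinase list, 1 rose and 3 fell in BALB/c, and 0 were called in B10.D2. The 1 that rose was Jun, from 52.7 to 78.3 CPM (0.57, edgeR adjusted p 0.0117, named after its values were seen). Among those that fell, Map2k4 went from 181 to 157 CPM (-0.21, edgeR adjusted p 0.0114).

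In rat, 4 of the 9 genes could be tested. After SNT Bcl2l11 and Gadd45a rose, 2 of 4 against 27.4% of 13690 features, and for all 4 the SNT libraries lay above the sham libraries, where 26.5% of features did not overlap. The 2 species differ in surgery, ganglion, day, RNA selection, pooling and sex, and their changes are set side by side without a test.

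Rat Bcl2l11 was at 13.0, 9.51, 11.3 and 22.0 CPM in sham libraries 1 to 4. It was at 23.6, 40.8, 40.4 and 29.4 CPM in SNT libraries 1 to 4. Sham 4 lay close to SNT 1, and the groups met there without overlapping. This was a log2 fold change of 1.27 (SE 0.274, 95% interval 0.73 to 1.80), or 2.40-fold, with an edgeR adjusted p of 0.0136, and without sham 4 it was 1.59 (adjusted p 0.00210).

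Rat Gadd45a was at 71.9, 80.8, 83.8 and 241.9 CPM in sham libraries 1 to 4. The SNT libraries 1 to 4 held 245.9, 293.1, 277.0 and 326.5 CPM. Sham 4 was almost at the level of SNT 1, far from the other 3 shams. The log2 fold change was 1.26 (SE 0.359, 95% interval 0.552 to 1.9595), or 2.39-fold, with an edgeR adjusted p of 0.0297. Without sham 4 it was 1.87 (adjusted p 0.000269), and the call was lost when sham 1, sham 2, sham 3, SNT 2, SNT 3 or SNT 4 was left out (adjusted p 0.0557 to 0.0860).

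Rat Bax was at 35.3 ± 2.90 CPM (SD, n = 4) among shams and 41.4 ± 0.346 CPM (SD, n = 4) after SNT, with a log2 fold change of 0.23 (adjusted p 0.0892 in edgeR, SE 0.0939). Rat Bcl2l1 was at 100.5 ± 9.65 CPM (SD, n = 4) among shams and 122.0 ± 2.35 CPM (SD, n = 4) after SNT, with a log2 fold change of 0.28 (adjusted p 0.0508 in edgeR, SE 0.0940). Neither passed. Without sham 4 both did, at 0.30 (adjusted p 0.0437) for Bax and 0.34 (adjusted p 0.0288) for Bcl2l1. Leaving out any other library gave no call, with an edgeR adjusted p of up to 0.236 for Bax and 0.150 for Bcl2l1.

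**Figure D4:**
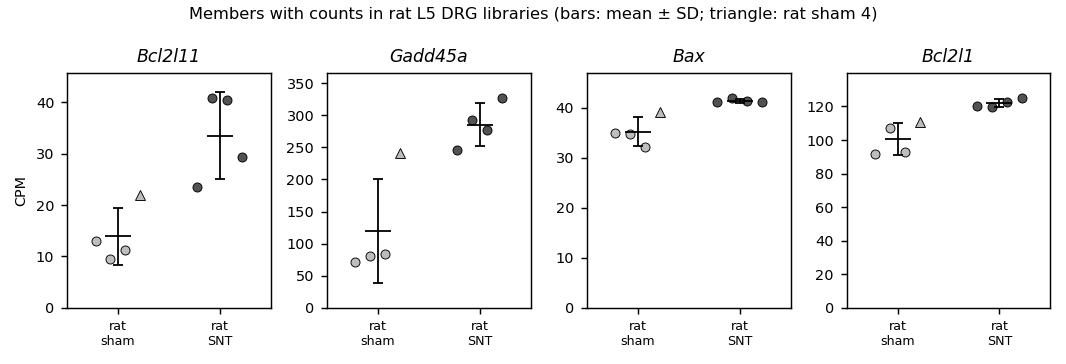
CPM of Bcl2l11, Gadd45a, Bax and Bcl2l1 (y axes) in the rat sham and SNT libraries (x axis), with mean ± SD as bars and sham 4 as a triangle. In all 4 genes sham 4 is the highest sham library, and for Gadd45a it holds 241.9 CPM against 71.9 to 83.8 CPM in the others.

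Sham 4 was also high in other markers. All 5 axotomised neuron markers tested rose after SNT. In sham 4 all markers of that list with rat counts, tested or not, summed to 429 CPM, against 133 to 155 CPM in the other shams and 593 to 911 CPM in SNT. The macrophage markers in sham 4 summed to 522.9 CPM, against 118 to 211 CPM in the other shams and 442 to 686 CPM in SNT. Of 5 macrophage markers tested in rat 1 (Cx3cr1) rose, and Mag and Sox10 rose among 3 Schwann cell markers. Of 6 sensory neuron markers tested 4 fell (Isl1, Avil, Scn9a and Scn10a). Atf3, Gap43, Aif1, Cd68, Csf1r, Ptprc, Mbp, Pmp22, Rbfox3, Tubb3, Uchl1 and Pou4f1 were listed at 0 in all rat libraries. The part of these cells in the rat values was not tested.

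Bcl2 and Cdkn1a were at 0 in all 8 rat libraries, where 3 counts are 0.168 to 0.251 CPM. These zeros cannot be read as levels. Of 12450 rat entries that match a mouse protein-coding gene of at least 1 CPM, 4687 (37.6%) were at 0 in every rat library. They ran in blocks: of the matched genes within 1000000 bases of the mouse gene, 28 of 28 were at 0 near Cdkn1a and 8 of 8 near Bcl2. Near the 4 members with rat counts, the number was 0 of 21 for Bcl2l11, 0 of 75 for Bax, 0 of 32 for Bcl2l1 and 0 of 3 for Gadd45a.

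Of the 81 other pathway genes 44 were tested in rat, and 20 were called, 12 higher and 8 lower, where 27.4% of all features were called. The median log2 fold change of the 44 was 0.159, beside 0.0027 over all features. Jun, the transcription factor gene of the JNK pathway, rose from 208 to 528 CPM (log2 fold change 1.34, edgeR adjusted p 0.0107). Plk2 and Foxo1 rose by 0.74 and 0.55, and Bok, an effector of the BCL2 family, by 0.61 (adjusted p 0.0120 to 0.0179). Perp, a p53 target, fell from 18.4 to 6.89 CPM (-1.42, edgeR adjusted p 0.0146) and Aifm1 from 71.3 to 48.4 CPM (-0.56, adjusted p 0.0143). Bnip3, Apaf1, Cdkn2a and Atr were called in rat and in both mouse strains with the same direction in each, which is 20% of the calls in rat, 20% of those in BALB/c and 44.4% of those in B10.D2. This overlap was not computed over all features either. Cdkn2a went from 5.87 to 10.02 CPM in rat (0.77, edgeR adjusted p 0.0114) and Atr from 222 to 111 CPM (-1.002, adjusted p 0.0106). Without sham 4, 26 of these genes were called.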

How the data were processed

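RNA was sequenced from mouse and rat DRG. Ribosome-depleted RNA in mouse and polyadenylated RNA in rat went into stranded libraries, which the authors aligned with STAR (mm10 or rn6) and counted with HTSeq. The deposited tables hold raw counts per gene. The deposited result tables hold the authors' own DESeq2 fold changes, p-values, Wald score and mean signal, and were used for gene symbols only. For 2 mouse samples of the labels (59, B10.D2 sham, and 66, BALB/c SNI) no column was at hand, and they were not analysed here.

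All features were fitted with the quasi-likelihood test of edgeR 4.0.16 in R 4.3.3 (TMM, filterByExpr), with sex, strain, surgery and the strain by surgery interaction in 20 mouse libraries and surgery alone in 8 rat libraries. All tests were two-sided, and p-values were adjusted by Benjamini-Hochberg over all features tested. The SE of a log2 fold change is its size over the root of F. Mouse positions and exonic lengths came from GENCODE M21 on mm10. DESeq2 1.42.0, other filters and normalizations, each strain alone, a replicate block in rat and leaving out each library were alternatives. Leaving out rat sham 4 together with SNT 1, the rat libraries that lay between the groups, was chosen after seeing the data. The models were checked on simulated counts. The floor of 3 counts covers counting error only.

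The 9 genes, the pathway lists and the marker lists were chosen with earlier results of these data known. Of the pathway genes called after injury, the 8 with the lowest adjusted p in each comparison are those named, and for Hrk and Gadd45a the 3 features of at least 1 CPM with the highest Pearson r of log2(CPM + 0.5). Some items that this rule or the lists would name are not reported here. Mouse libraries are separate animals and rat libraries are pools of 3.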

Additional observations from a re-analysis of the deposited data

Results flagged for a closer look

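Gadd45a in rat sham 4, at 241.9 CPM, lay farther from the other 3 sham libraries (71.9 to 83.8 CPM) than their spread allows by Dixon's 95% test. It was the 1 such case among 44 groups of member values tested, where chance gives about 1 in 20. Without this library the log2 fold change of Gadd45a after SNT was 1.87 (edgeR adjusted p 0.000269), and with it 1.26 (adjusted p 0.0297).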

How the results depend on the processing

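Hrk and Gadd45a kept their calls and direction in both mouse strains under every alternative run. DESeq2 called 4 members in B10.D2 (adding Bcl2l11 and Trp53) and 2 in the comparison of the strains in SNI (adding Cdkn1a), where no filter on low counts gave 3 (adding Cdkn1a and Hrk). With each strain fitted alone, 13 other pathway genes were called in BALB/c, and Bcl2l11 lost its call (adjusted p 0.0603). In rat, Bcl2l1 was called with at least 10 counts in every library (adjusted p 0.0439) and in DESeq2 (0.0466), and leaving out sham 4 and SNT 1 together gave 4 members and 31 other pathway genes.

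Leaving out 1 library at a time, the members called ranged from 2 to 4 in BALB/c, 2 to 4 in B10.D2, 1 to 3 between strains in SNI and 1 to 4 in rat, and the other pathway genes from 11 to 23 in BALB/c, 4 to 11 in B10.D2, 8 to 11 between strains in sham and 7 to 26 in rat. The lowest counts of other pathway genes came without SNI 65 in BALB/c, sham 67 in B10.D2 and sham 3 in rat, and those of members without SNI 49 or SNI 64 in BALB/c. Without SNI 90 in B10.D2, 3 members differed between strains in SNI.

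Values near 0 changed sign when a library was left out, and none of these was called. The log2 values ran from -0.0061 to 0.045 for Bcl2 and -0.011 to 0.13 for Bcl2l1 after SNI in B10.D2. In the interaction they ran from -0.24 to 0.024 for Bbc3, -0.13 to 0.040 for Bcl2l11 and -0.22 to 0.015 for Cdkn1a. Between strains in sham they ran from -0.022 to 0.099 for Bbc3 and -0.11 to 0.023 for Bcl2l1, and in SNI from -0.21 to 0.068 for Bbc3 and -0.072 to 0.018 for Trp53. Between the sexes they ran from -0.017 to 0.070 for Bcl2l11, -0.0028 to 0.026 for Bax, -0.019 to 0.011 for Bcl2 and -0.036 to 0.015 for Trp53.

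Rat titles share run numbers between sham and SNT, but libraries with the same number did not deviate together (r 0.056, -0.299, -0.118 and -0.101) and were not paired. With that number as a replicate block, 2 members and 16 other pathway genes were called, with Bcl2l11 at 1.31 (adjusted p 0.0355), Gadd45a at 1.46 (0.0273), Bax at 0.24 (0.140) and Bcl2l1 at 0.29 (0.0901).

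Low counts limit Hrk most, with 26 to 305 counts per mouse library, and the rat values cover only the genes that were counted.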

Other observations

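Between the strains, 10 of the 78 other pathway genes tested differed in sham animals (edgeR adjusted p under 0.05), 6 higher and 4 lower in B10.D2, and 19 differed in SNI animals, 7 higher and 12 lower. Of all features 21.6% and 20.8% differed in the same comparisons. After SNI the effector Bax relative to the anti-apoptotic Bcl2, per kilobase, was 1.67 ± 0.026 in BALB/c (SD, n = 4) against 1.45 ± 0.119 in sham (SD, n = 6). The BALB/c libraries were only just apart, with a lowest SNI ratio of 1.635 and a highest sham ratio of 1.620, and neither gene was called there. In B10.D2 the ratio was 1.62 ± 0.157 after SNI against 1.69 ± 0.0933 in sham (SD, n = 5 each), and the libraries overlapped. These ratios were not tested.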
